A study of Mus musculus with 67 samples.

Results

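Epas1 and 9 other genes of the cellular response to low oxygen were followed from the 2-cell embryo to the blastocyst in the light and control groups. The members were the rows of the deposited table whose symbols are Epas1, Hif1a, Arnt, Egln1, Egln3, Vegfa, Bnip3, Slc2a1, Slc2a3 and Ddit4, and all 10 were found among its 26414 genes. Epas1 was chosen because its rise in light blastocysts was the largest, so its levels in that comparison are given as a description with no test. The mouse embryos (strain C57BL/6) came from in vitro fertilization with oocytes of hormone-stimulated females 6 weeks old and sperm of males 10 weeks old. Light embryos received 5000 lx during 6 h as 2-cell embryos, with culture in the dark afterwards, and the control group was kept in the dark throughout. SMART-seq2, a full-length cDNA method for single cells, gave 67 libraries, which the labels number by embryo and the study describes as cells picked by hand from dissociated embryos. The control group had 7 libraries of 2-cell, 6 of 4-cell and 4 of 8-cell embryos, 13 of morulae and 3 of blastocysts, and the light group had 6, 8, 8, 6 and 6 in the same order.

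Cells sense oxygen through hypoxia-inducible factors, pairs of an alpha subunit, encoded by Hif1a or Epas1 (HIF-2α), and the constant partner Arnt. When oxygen is plentiful, the prolyl hydroxylases encoded by Egln1 and Egln3 mark the alpha subunits for VHL-dependent degradation, so much of the control lies at the protein level, which was not measured. When oxygen is low, the pair binds DNA and switches on genes such as Vegfa (a growth factor for blood vessels), Bnip3 (removal of mitochondria), the glucose transporters Slc2a1 and Slc2a3, Ddit4 (an inhibitor of mTORC1 signalling) and Egln3 itself. Slc2a1 and Slc2a3 are also known as the main glucose transporters of the preimplantation embryo.

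The deposited value of a gene is its reads over the size factor of that library, and 1 read was worth between 0.266 and 3.89 of these units. Total reads per library lay between 836010 and 8551673, but 54.0% to 89.3% of them fell on CT010467.1 and Gm42418, which carry ribosomal RNA sequence, and 318176 to 2867030 reads were left for all other genes. The reads carry no molecular identifiers, and intervals from read numbers cover counting error only. Gm42418 took 1.43 to 1.77 reads for each read of CT010467.1 in the light libraries from the 2-cell embryo to the morula, and 1.61 to 4.55 in the control libraries of these stages. The groups did not overlap in this ratio at the 2-cell, 8-cell and morula stages, and its part in the results was not tested. Of the 33 control libraries 17 correlated better with light than with control libraries of their stage, and of the 34 light libraries 0 did so the other way. They were 12 of the 13 morulae, 4 of the 6 libraries of 4-cell embryos, where library 3 had the widest gap (median r of 0.887 against 0.849), and the 2-cell library 17 (0.842 against 0.840), which also had the highest Epas1 of its group. Y-linked genes summed to at least 10 CPM (all CPM here leave the 2 ribosomal genes out of the total) in 27 libraries, among them 6 of 6 light and 0 of 3 control blastocyst libraries and 3 of 8 light and 0 of 4 control 8-cell libraries. In the other groups it was 2 of 6 light and 3 of 7 control 2-cell, 8 of 8 light and 4 of 6 control 4-cell, and 1 of 6 light and 0 of 13 control morula libraries. Whether the libraries of a group came from separate embryos was not tested, and the p-values measure the spread between libraries only.

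In the control group Epas1 went up and down with the stage. In control 2-cell libraries its values were 0.397, 0.690, 0.919, 1.04, 2.08, 2.61 and 38.2, so 6 of the 7 lay under 3. Control 4-cell libraries ranged from 8.52 to 158 with a median of 47.3. In control 8-cell libraries the values were 0, 0, 0.532 and 2.32, which together were 3 reads among 3992700 outside the 2 ribosomal genes. Control morulae held the highest levels, from 93.6 to 764 with a median of 257, and in control blastocysts the values were 1.05, 1.74 and 5.78. No control 8-cell or blastocyst library therefore reached the lowest control 4-cell or morula library.

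In the light group Epas1 was not low at the 8-cell and blastocyst stages. Light 2-cell libraries ranged from 3.89 to 65.9 with a median of 35.9, and light 4-cell libraries from 10.6 to 136 with a median of 91.0. Light 8-cell libraries lay between 49.1 and 100.2, with a median of 80.2. Light morulae ranged from 190 to 626 (median 333) and light blastocysts from 143 to 371 (median 228). By group mean of the deposited values, the order from the highest was control morula (370 ± 223, SD, n = 13), light morula (355 ± 149, n = 6), light blastocyst (254 ± 93.5, n = 6) and light 8-cell (79.2 ± 18.6, n = 8). Then came light 4-cell, control 4-cell, light 2-cell, control 2-cell, control blastocyst and control 8-cell. Of the 9 steps in this order, only that from light blastocysts to light 8-cell libraries was between groups whose libraries did not overlap. The order at the top depended on the scale. As CPM the means were 661 ± 208 in light blastocysts, 597 ± 285 in light morulae and 522 ± 297 in control morulae.

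**Figure D1:**
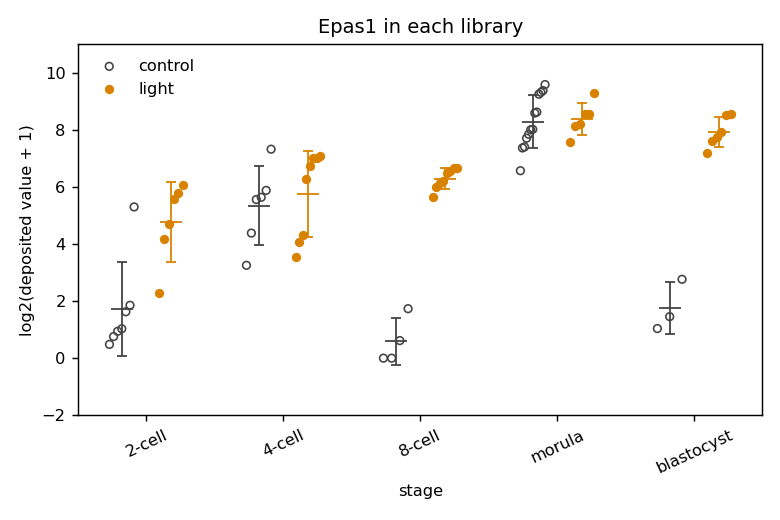
Each point is the Epas1 value of 1 library as log2(deposited value + 1), by stage, with control libraries as open and light libraries as filled points; bars give the mean and SD of each group. Control libraries at the 8-cell and blastocyst stages sit below all light libraries of these stages, while the groups overlap at the 2-cell, 4-cell and morula stages.

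Epas1 was tested in the comparisons that do not contain the blastocysts. Calls required an adjusted p under 0.05 (limma, Benjamini-Hochberg over all genes tested) and a change of at least 2-fold on log2(value + 1), a scale that understates changes of low genes. At the 8-cell stage Epas1 was higher in the light group by 5.70 on this scale (SE 0.50, adjusted p = 2.32e-07), with all 8 light libraries above all 4 control libraries. Pooled over libraries, it took 1354 reads in the light and 3 in the control group, a ratio of CPM of 159.6 with an exact 95% counting interval of 54.5 to 775. At the 2-cell stage the difference was 3.05 (SE 0.86, adjusted p = 0.0193), and the groups overlapped because of the control library 17 with its 38.2. The other control libraries, at most 2.61, lay close to the lowest light value. That value of 3.89 was 1 read, in the light library 16, which had the fewest reads outside the ribosomal genes (318176). This 2-cell call was lost when either the light library 10 or the light library 14 was left out, with adjusted p up to 0.0574, and with edgeR on the recovered reads, where the difference was 2.42 (adjusted p = 0.069). At the 4-cell stage and in morulae the differences were 0.42 (SE 0.63, adjusted p = 0.773) and 0.11 (SE 0.37, adjusted p = 0.924).

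From stage to stage in the control group, Epas1 rose by 3.62 (SE 0.81, adjusted p = 9.89e-04) from the 2-cell to the 4-cell stage. It then fell by 4.75 (SE 0.98, adjusted p = 0.00615) to the 8-cell stage, and rose by 7.69 (SE 0.51, adjusted p = 6.32e-11) to the morula. In the light group it rose from the 8-cell stage to the morula by 2.09 (SE 0.27, adjusted p = 9.20e-06). The changes in the light group from 2-cell to 4-cell (1.00, SE 0.61, adjusted p = 0.203) and from 4-cell to 8-cell (0.53, SE 0.44, adjusted p = 0.468) were not called, but edgeR called the first (1.66, adjusted p = 0.0194). The change from the 4-cell to the 8-cell stage differed between the groups by 5.28 (SE 0.87, adjusted p = 5.78e-04), and that from the 8-cell stage to the morula by -5.59 (SE 0.58, adjusted p = 3.25e-08). Both differences use the same 8-cell libraries, among them the 4 control libraries near 0.

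In blastocysts the light libraries held 143, 193, 212, 243, 364 and 371 and the control libraries 1.05, 1.74 and 5.78. The difference of 6.16 (SE 0.48) on the log2(value + 1) scale is the one for which the gene was chosen. In pooled reads it took 3905 in the light and 16 in the control group, a ratio of CPM of 174. From the morula to the blastocyst the fitted change was -6.52 (SE 0.55) in the control and -0.47 (SE 0.32) in the light group. Mean CPM of Epas1 went from 522 to 4.12 in the control and from 597 to 661 in the light group, so the direction in the light group depended on the scale.

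The cells picked from blastocysts may differ in lineage, so lineage markers are given beside Epas1. Of 13 trophectoderm markers, 13 exceeded 1 in at least 1 control and 12 in at least 1 light blastocyst library, and none was at 0 in all libraries of either group. Summed trophectoderm markers were 537, 3183 and 6716 in the control libraries 1, 2 and 3, and 2864 to 7146 in the light libraries. Summed inner cell mass markers were 2149, 1588 and 378 in the same control libraries and 218 to 458 in the light libraries. The control library 3 lay within the light range for both lists, with an Epas1 value of 5.78. The control libraries 1 and 2 lay above all light libraries in inner cell mass markers. The part of lineage in the Epas1 difference was not tested. Primitive endoderm markers summed to 1208 to 2083 in control and 785 to 2333 in light libraries, and cumulus cell markers to at most 5.57. Y-linked genes separate the blastocyst groups in full, so their part cannot be told apart from that of light here. At the 8-cell stage, Epas1 was 72.3 to 100.2 in the 3 light libraries with Y-linked reads and 49.1 to 99.7 in the 5 without, and the 4 control libraries, all without them, were at 2.32 or less.

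**Figure D2:**
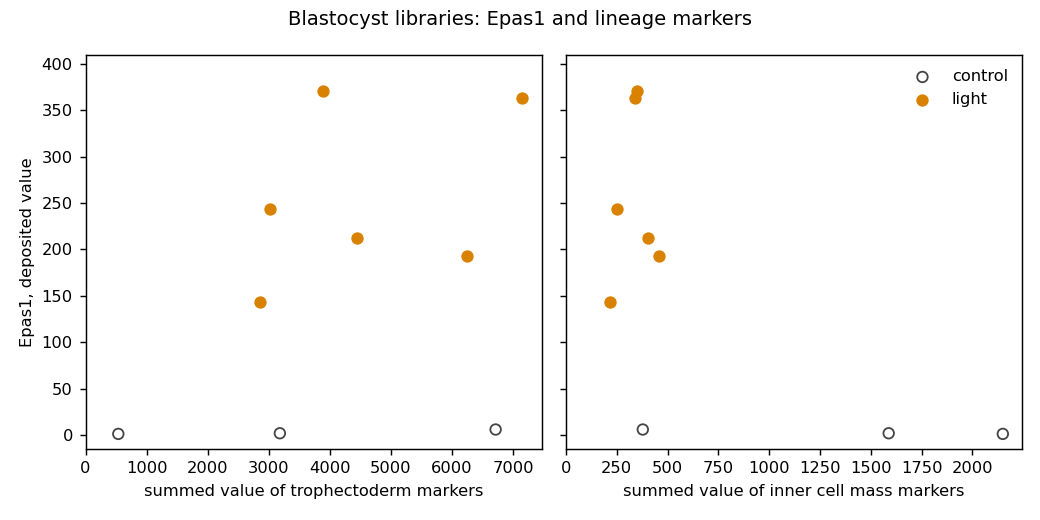
Epas1 (deposited value, vertical axis) in the 9 blastocyst libraries against the summed values of trophectoderm markers (left) and inner cell mass markers (right), with control libraries open and light libraries filled. The control library with marker sums inside the light range, 6716 and 378, lies at 5.78. The other control libraries have inner cell mass sums of 2149 and 1588, above all light libraries, and the part of lineage was not tested.

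Hif1a, the other alpha subunit, had a different course, with its low point at the 4-cell stage in the control group. It fell from 66.6 to 157 in control 2-cell libraries to 0 in 4 of 6 control 4-cell libraries and at most 9.78 in the other two, a change of -5.59 (SE 0.69, adjusted p = 1.20e-06). In the light group it fell by 3.41 (SE 0.63, adjusted p = 9.82e-05), from 38.0 to 124 at the 2-cell stage to 0 to 14.9 at the 4-cell stage. No 4-cell library of either group reached the lowest 2-cell library of its group. In 8-cell embryos it was 8.33 to 44.6 in control and 0.387 to 15.7 in light libraries, and in morulae 0 to 82.3 and 0.934 to 56.9. In the light group it rose again from the morula to the blastocyst by 1.80 (SE 0.58, adjusted p = 0.0235).

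Control blastocysts held Hif1a at 111, 117 and 188 and light blastocysts at 31.6, 45.2, 50.9, 67.1, 78.8 and 97.2, so the light libraries lay lower without overlap. The difference was -1.20 (SE 0.43) while the median of all genes tested in this comparison was -0.64, or -0.09 after scaling by the median ratio. As RPKM, computed from the recovered reads outside the ribosomal genes, Hif1a was 25.7 to 42.6 in control and 17.2 to 44.0 in light blastocysts, and there the groups overlapped. At the earlier 4 stages Hif1a was not called between light and control, with the largest difference at the 8-cell stage (-1.63, SE 0.76, adjusted p = 0.18).

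Arnt, the partner of both alpha subunits, varied least of the subunits between stages. Its group means lay between 22.3 ± 25.7 (SD, n = 13) in control morulae and 109 ± 16.7 (n = 6) in light 2-cell libraries. The fall from the 2-cell to the 4-cell stage in the light group (-1.17, SE 0.41, adjusted p = 0.024) was called, but was lost under median ratio scaling and with edgeR. None of the 4 tested comparisons of light with control called it.

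The hydroxylase gene Egln1 was lower in light 2-cell embryos. Control 2-cell libraries held 54.8, 57.3, 68.8, 72.6, 86.9, 103 and 129, and light ones 15.7, 18.4, 19.3, 21.7, 23.4 and 42.7. The groups did not overlap, and the difference was -1.77 (SE 0.44, adjusted p = 0.00824). At the 4-cell stage control libraries held 11.4 to 46.0 and light ones 0 to 12.0, a difference of -1.98 (SE 0.70, adjusted p = 0.145) that was not called. Egln1 fell from the 2-cell to the 4-cell stage by 1.69 (SE 0.47, adjusted p = 0.00563) in the control group and by 1.90 (SE 0.63, adjusted p = 0.0176) in the light group, the second call being lost under median ratio scaling and with edgeR. From the 8-cell stage to the morula it rose in the light group by 2.54 (SE 0.66, adjusted p = 0.0107), from 0.387 to 22.6 up to 17.7 to 46.5. In blastocysts the groups overlapped, with 14.7, 28.2 and 74.5 in control and 19.5 to 69.5 in light libraries.

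Egln3, the second hydroxylase and itself a target, was at 0 in 42 of the 67 libraries. It was seen mainly at the 2-cell stage, with 0 to 45.7 in control and 0 to 54.4 in light libraries. It fell to the 4-cell stage by 2.88 (SE 0.90, adjusted p = 0.0121) in the control and by 2.21 (SE 0.81, adjusted p = 0.0307) in the light group, the second call being lost with the pseudocount of 0.1 and with edgeR. In control blastocysts its values were 0, 5.78 and 7.36 against at most 4.27 in control morulae, a rise of 1.76 (SE 0.56, adjusted p = 0.039). That call was lost with a pseudocount of 0.1, with edgeR, and without the control blastocyst library 1 or 3, when the gene no longer passed the filter on low values. Light blastocysts held at most 0.776.

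Bnip3, whose product marks mitochondria for removal, was called between light and control at 2 stages, higher in light at both. Control 2-cell libraries held 19.3, 42.0, 48.7, 77.0, 77.1, 86.2 and 112, and light ones 155, 205, 233, 249, 351 and 493. No library overlapped, and the difference was 2.14 (SE 0.39, adjusted p = 5.57e-04). Control 8-cell libraries held 71.3, 128, 195 and 248 and light 8-cell libraries 247 to 503 with a median of 431. This difference of 1.48 (SE 0.28, adjusted p = 0.00163) was called, with an overlap of 1 light and 1 control library near 248. At the 4-cell stage (191 to 996 in control, 450 to 956 in light libraries) and in morulae (58.0 to 330 and 164 to 336) it was not called, with differences of 0.20 (SE 0.33, adjusted p = 0.80) and 0.47 (SE 0.35, adjusted p = 0.548). In blastocysts the values were 17.4, 182 and 216 in control and 82.8 to 208 in light libraries.

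Bnip3 rose from the 2-cell to the 4-cell stage by 3.14 (SE 0.48, adjusted p = 1.76e-05) in the control and by 1.20 (SE 0.25, adjusted p = 4.05e-04) in the light group. The 2 changes differed by -1.94 (SE 0.54, adjusted p = 0.037). This difference was not called under median ratio scaling or without the control 4-cell library 3, where its adjusted p was 0.0523. The fall from the 4-cell to the 8-cell stage in the control group (-1.84, SE 0.48, adjusted p = 0.0229) was lost under median ratio scaling, with edgeR and without the control 8-cell library 1 or 3.

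At the 2-cell stage the light libraries also held less maternal RNA. The summed value of 10 oocyte transcripts such as Gdf9 and Zp3 was 848 to 2402 in light and 2704 to 5780 in control 2-cell libraries, and 87.4 to 354 in control 4-cell libraries. Between control 2-cell and control 4-cell libraries, which share the control 2-cell libraries with the comparison of light and control, Epas1 and Bnip3 rose and Egln1 fell, by the values given above. In 8-cell embryos the same sum was 53.4 to 144 in light and 123 to 237 in control libraries. The part of maternal RNA or of a difference in developmental time in these results was not tested.

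**Figure D3:**
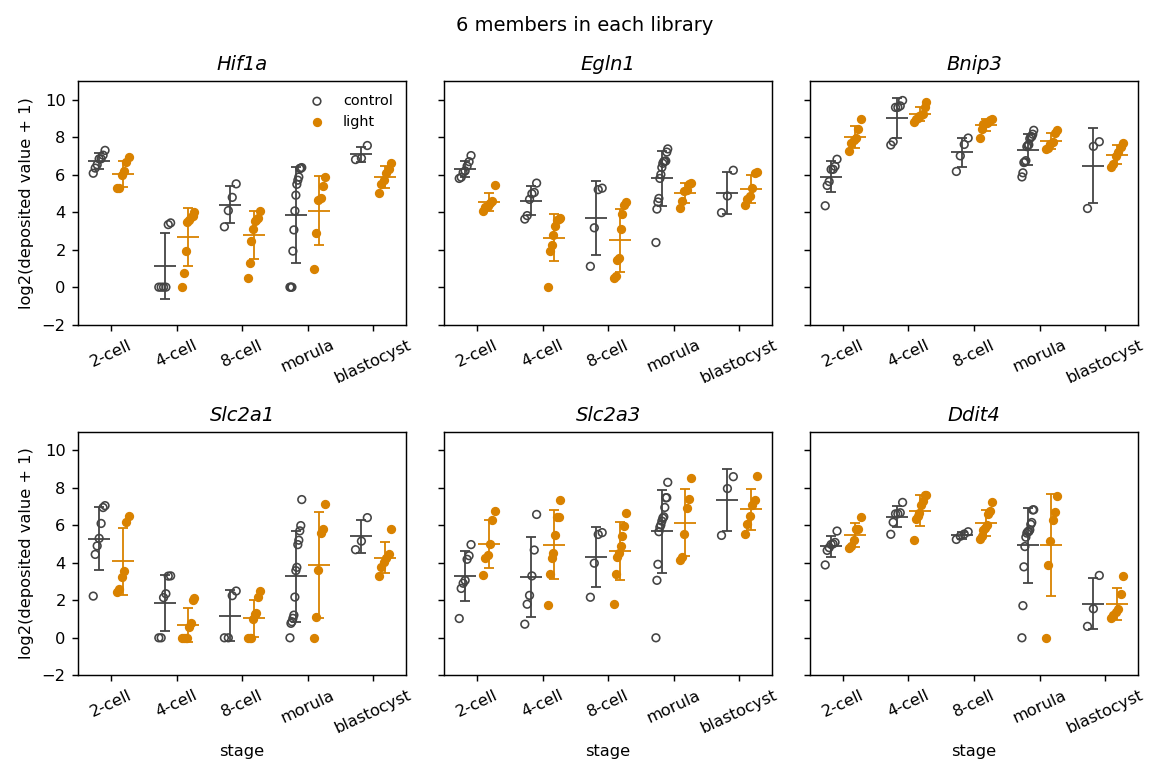
Values of 6 members in each library as log2(deposited value + 1), by stage, control open and light filled, with bars for the mean and SD of each group. Light and control 2-cell libraries do not overlap for Egln1 (lower in light) and Bnip3 (higher in light), Hif1a is lowest at the 4-cell stage in the control group, and Ddit4 lies under 10 units in all blastocysts.

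The sequences before the start sites of Bnip3 and Egln1, the called members without overlap at the 2-cell stage, are shown because the core of the element bound by hypoxia-inducible factors can be looked for in them. Each covers the 250 bases before the start in RefSeq (GRCm38.p6), on the minus strand, at chr7:138909507-138909756 for Bnip3 and chr8:124949255-124949504 for Egln1. Capitals mark ACGTG or GCGTG on either strand (CACGT or CACGC where read on the other strand), and a CACGTG counts on both strands.
Bnip3: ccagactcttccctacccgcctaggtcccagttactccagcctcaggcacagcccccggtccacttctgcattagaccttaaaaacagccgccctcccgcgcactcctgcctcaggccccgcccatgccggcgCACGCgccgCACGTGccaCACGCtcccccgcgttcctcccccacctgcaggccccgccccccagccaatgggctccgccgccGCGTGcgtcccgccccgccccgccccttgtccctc
Egln1: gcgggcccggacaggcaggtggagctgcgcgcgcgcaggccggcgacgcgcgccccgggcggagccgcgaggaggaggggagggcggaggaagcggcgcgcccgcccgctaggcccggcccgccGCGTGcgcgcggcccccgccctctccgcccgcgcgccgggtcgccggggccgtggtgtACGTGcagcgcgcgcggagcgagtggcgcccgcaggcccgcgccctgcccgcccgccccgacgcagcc
Bnip3 had 5 matches and Egln1 had 2. Of the 10 members, 8 had a promoter in the RefSeq table, with 9 start sites, and 8 of these 9 held at least 1 match, against 38.6% of all 32851 promoters. ACGTG alone stood in 7 of the 9 and in 16.6% of all promoters. Epas1 and Slc2a3 had no entry. The members were chosen as oxygen-response genes and all promoters were not matched to them in base content, so nothing about light is read from these shares. The matches are a description of letters near the start sites, and binding was not measured.

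The glucose transporter genes differed in their course. Slc2a1 was 3.68 to 132 in control and 4.54 to 89.4 in light 2-cell libraries, and fell to the 4-cell stage by 3.44 (SE 0.82, adjusted p = 0.00172) in the control and 3.40 (SE 0.74, adjusted p = 5.54e-04) in the light group. At the 4-cell and 8-cell stages no library of either group exceeded 8.88. In the light group it rose to the morula by 2.84 (SE 0.90, adjusted p = 0.0352), a call lost with a pseudocount of 0.1, and morulae ranged from 0 to 165 in control and from 0 to 139 in light libraries. Slc2a3 was not called in any tested comparison. Its group means went from 12.5 ± 10.4 (SD, n = 7) in control 2-cell libraries to 226 ± 173 (n = 3) in control blastocysts, and from 43.9 ± 39.6 (n = 6) to 148 ± 126 (n = 6) in the light group. As RPKM outside the ribosomal genes, Slc2a3 stood at 43.6 ± 30.4 in control and 48.5 ± 29.1 in light blastocysts, the other order. The spread of Slc2a3 within groups was wide, with deposited values of 0 to 313 in control morulae. Neither transporter was called between light and control at the 2-cell, 4-cell, 8-cell or morula stage, and in blastocysts both groups overlapped for both genes.

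Ddit4, an inhibitor of growth signalling, was present until the morula and low in blastocysts of both groups. It rose from the 2-cell to the 4-cell stage by 1.59 (SE 0.46, adjusted p = 0.007) in the control and 1.29 (SE 0.39, adjusted p = 0.00999) in the light group, to 45.0 to 149 and 35.7 to 198. In morulae it spread from 0 to 113 in control and 0 to 186 in light libraries. Control blastocysts held 0.53, 1.93 and 9.05 and light blastocysts 1.07 to 8.93. The fall from the morula was called in the light group (-3.13, SE 0.83, adjusted p = 0.00607; lost with a pseudocount of 0.1). Ddit4 was not called between light and control at any of the 4 tested stages.

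Vegfa was at 0 in 48 of the 67 libraries and reached at most 14.7, in a control 2-cell library. It was at 0 in all control 4-cell, light morula and light blastocyst libraries. It was not called by limma in any tested comparison, while edgeR called it from the 2-cell to the 4-cell stage in the control group, where all 4-cell libraries are at 0, and in the difference between groups from 4-cell to 8-cell (adjusted p = 0.011 and 0.0307).

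**Figure D4:**
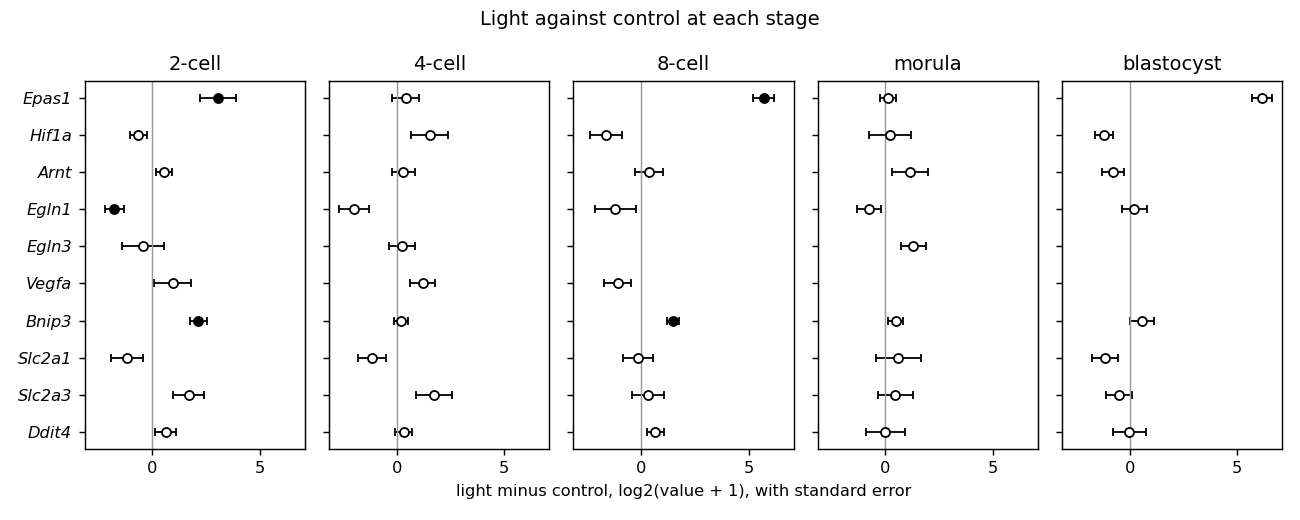
Light minus control on the log2(value + 1) scale for the members that passed the filter at each stage; bars are standard errors, filled points were called, and the blastocyst panel shows values with no test. Called are Epas1, Egln1 and Bnip3 at the 2-cell and Epas1 and Bnip3 at the 8-cell stage, and Epas1 stands at 6.16 in blastocysts.

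Over the light comparisons, 3 of 10 members were called at the 2-cell stage (2 higher, 1 lower), where 10.5% of all 18532 genes tested were called, 5.53% higher and 4.96% lower. Both Egln1 and Bnip3 did not overlap between the groups there, like 4.15% of all genes. At the 4-cell stage 0 of 10 were called by limma, where 1.45% of all genes were, and in morulae 0 of 9 where 1.18% were. At an unadjusted p under 0.05 they were 2 members at the 4-cell stage (Egln1 and Vegfa) and 1 in morulae (Egln3), and edgeR called 0 in both. Of the 9 members tested in 8-cell embryos, 2 were called, both higher, against 9.21% of all genes (5.91% higher and 3.30% lower). Epas1 did not overlap there, like 5.61% of all genes. In blastocysts 7 of the 9 members other than Epas1 passed the filter and 0 of these were called by limma and by edgeR (1, Hif1a, with limma's unadjusted p under 0.05), beside 5.34% of all genes (0.353% higher, 4.98% lower). Epas1 and Hif1a did not overlap, beside 12.5% of all genes, and nothing is read from either share, since the choice of Epas1 used this comparison. Members had a median difference of 0.57 in 2-cell embryos (all genes 0.00), 0.32 in 4-cell embryos (0.13), 0.32 in 8-cell embryos (0.16), 0.46 in morulae (0.10) and, without Epas1, -0.49 in blastocysts (-0.64). Across stages, 7 of 10 members were called from 2-cell to 4-cell in the control group and 7 of 10 in the light group, against 46.1% and 36.5% of all genes. From 4-cell to 8-cell it was 2 of 8 (6.31% of all genes) in the control and 0 of 10 (10.6%) in the light group, where 2 had an unadjusted p under 0.05 with limma and edgeR called 0. From 8-cell to morula it was 1 of 9 (14.3%) and 3 of 9 (11.8%), and from morula to blastocyst, without Epas1, 1 of 9 (11.9%) and 2 of 7 (20.7%). The change between stages differed between groups for 1 of 10 members from 2-cell to 4-cell (3.07% of all genes), from 4-cell to 8-cell (3.80%) and from 8-cell to morula (2.62%).

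Levels of different genes can be compared only per length. As RPKM over merged exons, computed from the recovered reads outside the ribosomal genes, Epas1 was far under Hif1a in control 2-cell libraries (0.89 ± 1.92 against 13.8 ± 3.68, SD, n = 7). In control morulae it stood at 93.4 ± 53.1 against 8.53 ± 8.35 for Hif1a (n = 13). In control blastocysts the order was that of the 2-cell stage again (0.74 ± 0.58 against 36.2 ± 9.19, n = 3), while light blastocysts held 118 ± 37.2 of Epas1 and 27.1 ± 9.28 of Hif1a (n = 6). Arnt lay between 3.75 and 11.0 in all group means. Bnip3 was the highest of the 9 target and regulator genes other than Epas1 in all group means, from 22.2 ± 11.1 (n = 7) in control 2-cell libraries to 271 ± 48.4 (n = 8) in light 4-cell libraries.

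Over the 67 libraries, the 5 named genes whose log2(value + 1) followed that of Epas1 most closely were Rragd (r = 0.72), Mif (0.72), Gsto1 (0.71), Gab1 (0.71) and Pramel5 (0.70), among 22587 genes. Rragd encodes a Rag GTPase that acts on mTORC1, Gsto1 a glutathione transferase and Gab1 an adaptor of growth factor receptors. Their means were at or near 0 in control 8-cell libraries for Rragd (0.29) and Gab1 (0), against 65.2 and 36.0 in light 8-cell libraries. For Gsto1, Mif and Pramel5 they were 2.59, 38.6 and 33.7 in control against 151, 86.9 and 96.4 in light 8-cell libraries. In control blastocysts the means of Rragd, Mif, Gsto1, Gab1 and Pramel5 were 40.4, 33.6, 442, 10.4 and 224. In light blastocysts they were 60.6, 72.7, 716, 86.7 and 191 in the same order. The members were less alike, with Slc2a3 the closest (0.39), then Bnip3 (0.28), and Egln3 the most opposed (-0.38). These values describe libraries that share stages, groups and differences in depth.

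In a wider list of 72 oxygen-response genes in the table, chosen by textbook role, both directions occurred. At the 2-cell stage 11 of the 61 tested were called, 6 higher and 5 lower in light, where 10.5% of all genes were called, 5.53% higher and 4.96% lower. Hmox1, the heme-degrading enzyme of the response to oxidative stress, was higher by 3.60 (SE 0.90, adjusted p = 0.00827), with 5.67 to 105 in light and 0 to 20.0 in control libraries. The histone demethylase Kdm4b and Pfkfb3, an activator of glycolysis, were higher by 2.16 (SE 0.65, adjusted p = 0.028) and 2.05 (SE 0.55, adjusted p = 0.0138). The transcriptional repressor Bhlhe40 (-3.72), the collagen-modifying Plod1 (-2.81) and the carbonic anhydrase Car9 (-2.65) were lower, with adjusted p of 0.00212, 0.0221 and 0.0353. Car9, a widely used marker of hypoxia, held 0.869 to 61.4 in control and 0 to 10.0 in light 2-cell libraries.

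At the 4-cell stage 2 of 55 list genes were called, both higher (1 to 4 when 1 library was left out), the larger being the ubiquitin ligase Siah1a (3.43, SE 0.69, adjusted p = 0.0164), where 1.45% of all genes were called. Of the 55 list genes tested in 8-cell embryos, 9 were called, 4 higher and 5 lower, where 9.21% of all genes were called, 5.91% higher and 3.30% lower. Pou5f1 (2.07), the VHL-complex cullin Cul2 (1.56) and Bnip3l (1.52), the close relative of Bnip3, were higher, with adjusted p of 5.32e-04, 0.0257 and 5.58e-04. Bnip3l was 182 to 379 in light and 71.3 to 130 in control 8-cell libraries. Gapdh (-2.13), the coactivator Crebbp (-1.39) and P4ha2 (-1.32) were lower, with adjusted p of 0.0224, 9.44e-04 and 0.0424. In morulae Hmox1 was higher by 4.31 (SE 0.89, adjusted p = 0.00988) and Crebbp lower by 1.43 on the log2 scale (adjusted p = 0.021), the 2 called of 56 (1 to 4 when 1 library was left out), where 1.18% of all genes were called.

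In blastocysts 5 of 54 list genes were called, 0 higher and 5 lower, where 5.34% of all genes were called, 0.353% higher and 4.98% lower. Leaving out 1 library gave 0 (without the control library 2) to 6 list calls. Among the 5 were the lipase inhibitor Angptl4 (-2.63), the histone demethylase Kdm3a (-2.22) and the transferrin receptor Tfrc (-2.10), with adjusted p of 0.031, 0.0303 and 0.0159. The split depended on the scaling. Under median ratio scaling 3 were called higher (Tpi1 and Eno1 of glycolysis, and Elob) and 0 lower, beside 132 higher and 152 lower of all 12344 genes. With edgeR 2 were called higher (Elob and Eno1) and 0 lower, beside 55 higher and 89 lower of all 12741 genes. The list medians of light minus control were 0.51, 0.16, 0.31, 0.27 and -0.63 in stage order, beside 0.00, 0.13, 0.16, 0.10 and -0.64 for all genes tested.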

How the data were processed

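RNA of 67 mouse embryo libraries (SMART-seq2) was read from 1 deposited table of 26414 genes. HISAT2, HTSeq 0.9.1 and mm9 are named in the submitters' processing notes. The authors deposited signal values, that is reads over a size factor: multiplied back, at least 99.97% of them in any library were whole within 0.01 reads. The study's methods describe RPKM, but the values were not divided by length. Apart from the promoter windows of Bnip3 and Egln1, which are in GRCm38.p6, no gene coordinates are given, since the annotation at hand (GENCODE M21, which held 99.7% of the symbols, and RefSeq, GRCm38.p6) is of another build. Lengths of merged exons came from GENCODE.

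Light was compared with control at each stage, neighbouring stages within each group, and these changes between groups, in R 4.3.3 by limma 3.58.1 (eBayes with trend). The test used log2(value + 1) for genes exceeding 1 in 3 or more of the compared libraries, with Benjamini-Hochberg adjustment over all of them. No covariate was used, since the labels name no batch or litter. The script was tested on simulated data. Alternatives were scaling by the median ratio without the 2 ribosomal genes, a pseudocount of 0.1, no filter, edgeR 4.0.16 (quasi-likelihood, TMM) on the recovered reads, a block of the replicate number, and leaving out single libraries. The block used only libraries whose number both groups share. Every library was left out in turn for light against control, but only some for changes between stages. Closest pairs of libraries within each group differed by more than counting error (chi-square per degree of freedom at least 6.64). Tables and figures were made with matplotlib 3.10.9, pandas 2.3.3 and numpy 2.4.6 under Python 3.11.15.

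The members and lists were chosen with earlier results of these data known. Named besides the members were, in each comparison of light with control, called genes of the oxygen-response list with a mean of at least 10 in a group, at most 3 in each direction by size of change. The 5 genes most like Epas1 were named by Pearson correlation, leaving out predicted genes. Genes named for another scaling in blastocysts, and members named for an unadjusted p, were chosen after their values were seen.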

Additional observations from a re-analysis of the deposited data

Results flagged for a closer look

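In 80 groups of 4 to 10 libraries (10 members), Dixon's test at the 95% level marked 7. For normal values it would mark about 1 in 20 by chance, a rate that does not apply to groups with most libraries at 0. In control 2-cell embryos Epas1 was 38.2 in the library 17, with the next at 2.61. Egln3 stood apart in 4 groups in which most libraries were at 0: 7.67 in the control 4-cell library 1, 13.5 in the light 4-cell library 11, 2.50 in the control 8-cell library 4 and 12.0 in the light 8-cell library 10. Vegfa was at 0 in the light 2-cell library 16, below 5.03 in the next. That library had the fewest usable reads (318176), and 1 read in it was worth 3.89 units. In the light 8-cell library 5 Vegfa was at 2.85, with all others of that group at 0.

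The change between stages differed between light and control for Bnip3 from the 2-cell to the 4-cell stage (-1.94 on the log2 scale), and for Epas1 from the 4-cell to the 8-cell stage (5.28) and from the 8-cell stage to the morula (-5.59).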

How the results depend on the processing

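Depth limits the members that are low. With 318176 to 2867030 usable reads and 1 read worth up to 3.89 units, many values of Vegfa and Egln3 rest on few reads, and the group sizes of 3 and 4 (control blastocysts and 8-cell embryos) leave counts of calls open to single libraries. Some replicate numbers are shared between light and control. Deviations from the group means in same-numbered light and control libraries of a stage correlated at -0.087 to 0.069 over 10 pairs. Same-numbered libraries of different stages were not checked. Whether a shared number stands for a shared embryo or batch was not tested, and the block result is given here once.

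The block fit kept only libraries whose replicate number occurs in both groups compared. These were the numbers 9, 10 and 12 at the 2-cell stage, and 1 and 2 from morula to blastocyst in the control group. The part of the block and that of the smaller number of libraries were not told apart. With the replicate number as a block, calls between light and control at the 2-cell stage went from 3 to 2 (Epas1, and Slc2a1 in place of Egln1 and Bnip3, whose adjusted p became 0.0802 and 0.0628). Of all genes, 2263 of 15472 were called there. Member calls became 0 from 2-cell to 4-cell in the light group, 0 from 4-cell to 8-cell and 0 from 8-cell to morula in the control group, and list calls 0 at the 4-cell stage and 0 in morulae. Of all genes, 1216 of 11083, 150 of 12324 and 533 of 8766 were called in these comparisons of members. In those of the list it was 0 of 11975 and 0 of 12101, so these fits called no gene at all. The other member counts that could be fitted with the block stayed within 1.5 times, but with other members in 2 comparisons. From 8-cell to morula in the light group Egln1 was lost and Slc2a3 gained (3.05, adjusted p = 0.0141), and from morula to blastocyst in the control group Egln3 was lost and Hif1a gained (5.69, adjusted p = 2.67e-05).

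Member calls from 4-cell to 8-cell in the control group were 1 with median ratio scaling and 1 with edgeR. From morula to blastocyst they were 0 with a pseudocount of 0.1 and 0 with edgeR in the control group, and 1 with a pseudocount of 0.1 in the light group. The Bnip3 difference between groups left 0 calls under median ratio scaling, and for the difference from 4-cell to 8-cell edgeR called 2 members (Epas1 and Vegfa). List calls were 0 at the 4-cell stage with no filter, where 53 of all 21449 genes were called. In blastocysts they were 3 with median ratio scaling, 2 with a pseudocount of 0.1, 2 with edgeR and 2 with no filter. Of all genes, 284 of 12344, 286 of 12743, 144 of 12741 and 264 of 20231 were called there in the same order. The cause of these shifts was not tested.

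Leaving out 1 library at a time gave 1 to 4 list calls in 4-cell embryos, 1 to 4 in morulae, and in blastocysts 0 to 6. For changes between stages in the control group, only the 8-cell and blastocyst libraries and the 4-cell library 3 were left out. That gave 1 to 3 member calls from 4-cell to 8-cell (5 left out), 1 to 2 from 8-cell to morula (4) and 0 to 1 from morula to blastocyst (3). No library was left out for changes within the light group. The difference from 2-cell to 4-cell had 0 without the control 4-cell library 3.

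Differences between light and control that were not called changed sign in a few settings. With the block, Arnt (-0.69) and Ddit4 (-0.35) at the 4-cell stage and Hif1a (-0.24) and Slc2a1 (-1.15) in morulae did, and so did the light change of Arnt from 2-cell to 4-cell (0.049), which is called without the block. Slc2a1 in 8-cell embryos was 0.056 with a pseudocount of 0.1. In morulae Hif1a was -0.19 with edgeR, and Ddit4 was 0.10 with median ratio scaling and 0.62 with edgeR. Without single libraries the ranges were -0.999 to 0.16 for Egln3 in 2-cell and -0.084 to 0.39 for Bnip3 in 4-cell embryos. In 8-cell embryos they were -0.27 to 0.86 for Arnt, -0.55 to 0.28 for Slc2a1 and -0.40 to 0.75 for Slc2a3. In morulae they were -0.075 to 0.27 for Epas1, -0.13 to 0.85 for Hif1a, -0.059 to 1.37 for Slc2a1, -0.019 to 0.86 for Slc2a3 and -0.53 to 0.98 for Ddit4.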

Other observations

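Across the stages, the wider oxygen-response list moved in both directions in both groups. From the 2-cell to the 4-cell stage 25 of 60 list genes were called in the control group (9 higher, 16 lower) and 26 of 60 in the light group (6 higher, 20 lower), beside 46.1% and 36.5% of all genes. From the morula to the blastocyst it was 16 of 56 in the control (9 higher, 7 lower) and 19 of 56 in the light group (11 higher, 8 lower), beside 11.9% and 20.7% of all genes.

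Among the members over the 67 libraries, Bnip3 and Hif1a were the most opposed pair (r = -0.56), followed by Ddit4 and Hif1a (-0.53). Slc2a1 and Egln1 (0.52) and Slc2a1 and Hif1a (0.51) were the most alike. These correlations hold the differences between stages and are descriptions only.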
